A study of Caenorhabditis elegans with 18 samples.

Results

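The region described here is the stretch of Caenorhabditis elegans chromosome II from 3 to 4 Mb (build ce10, by the start of each 20-bp bin), on the left arm of the chromosome. Its reads were summed over windows of 1 kb, and a window was taken as a member where it held at least 30 reads over all 18 libraries. This gave 585 member windows of 14514 windows with as many reads in the whole table. In the interval, 415 further windows held fewer reads and 6 of those held none. Just inside the limit lay 9 windows with 30 reads, and just outside it 8 windows with 29. The bins carry no gene names and no annotation of build ce10 was at hand, so windows are given by position alone, and the placement on the arm was taken from the region's name.

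Worm small RNAs are carried by Argonaute proteins, which use them to find complementary transcripts. Many are copied from target transcripts by RNA-dependent RNA polymerases. NRDE-3 is an Argonaute that takes such RNAs into the nuclei of somatic cells, where it acts in transcriptional silencing. MET-2 and SET-25 are methyltransferases for lysine 9 of histone H3, a mark found most on the repeat-rich arms of worm autosomes. By its title, the study asked how a histone methyltransferase is recruited in somatic cells.

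Small RNA was sequenced from embryos collected before the bean stage, 60 to 65 h after synchronisation of first-stage larvae, in 3 libraries for each of 6 strains. The strains were N2 (Bristol), nrde-3(tm1116) X, met-2(n4256) III, set-25(n5021) III, and 2 double mutants in which nrde-3(tm1116) was joined to met-2(n4256) or to set-25(n5021). They are called N2, nrde-3, met-2, set-25, met-2;nrde-3 and set-25;nrde-3 below. No strain carried a transgene by its label. The mutated genes lie on chromosomes that the table does not cover, and the embryonic stage could not be checked by marker genes, so strains and stage are those of the labels. Whole embryos were used, so fewer cells of a type and less small RNA per cell cannot be told apart.

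Libraries held 68897 to 304315 reads in the region. Levels are normalised read counts, in CPM on library sizes adjusted by TMM factors, given as mean ± SD over 3 libraries. A change is a log2 fold change with its SE by the quasi-likelihood test of edgeR, with p-values adjusted over all 10730 windows tested, and a window is called at an adjusted p under 0.05. Libraries 1 and 2 of met-2;nrde-3 stood apart. They had a read in 5.30% and 6.49% of the region's bins, against 8.96% to 14.2% in the other libraries. They lacked any read in 153 and 98 member windows, against 6 to 50 elsewhere. Where both are left out, library 3 alone stands for the strain, so a call can be lost there for lack of replicates. The end of chromosome I, a source of abundant reads, also took a share of each library that differed between and within strains. Its share was 22.8% to 32.8% in N2, 21.0% to 40.8% in met-2;nrde-3 and 32.9% to 54.5% in nrde-3. It took 44.1% to 52.9% in met-2, 52.8% to 60.5% in set-25 and 56.3% to 68.8% in set-25;nrde-3. Its part in the results was not tested beyond the values given without it.

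A few windows held most of the small RNA of the region. The interval from 3.3 to 3.4 Mb held 57.2% of its reads and the neighbouring interval from 3.2 to 3.3 Mb held 14.3%. Member totals ran from 30 to 504892 reads with a median of 230. In N2, 4 or 5 windows together held 50% of the member reads. The members fell into 122 runs of adjoining windows, of which 41 were single windows and 16 had 10 or more. The longest run, II:3918017-3953016, had 35 windows and only 761 CPM in N2 when its windows were added together.

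The spread of reads within a window varied among members. A median of 30 of 50 bins per member had any read, and the bin with most reads held a median of 21.6% of them. Of 400 members that passed the filter on low counts and were tested, 38 had more than 50% of their reads in a single bin and 175 had less than 20%. The 185 members that were not tested had at most 118 reads each.

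**Figure D1:**
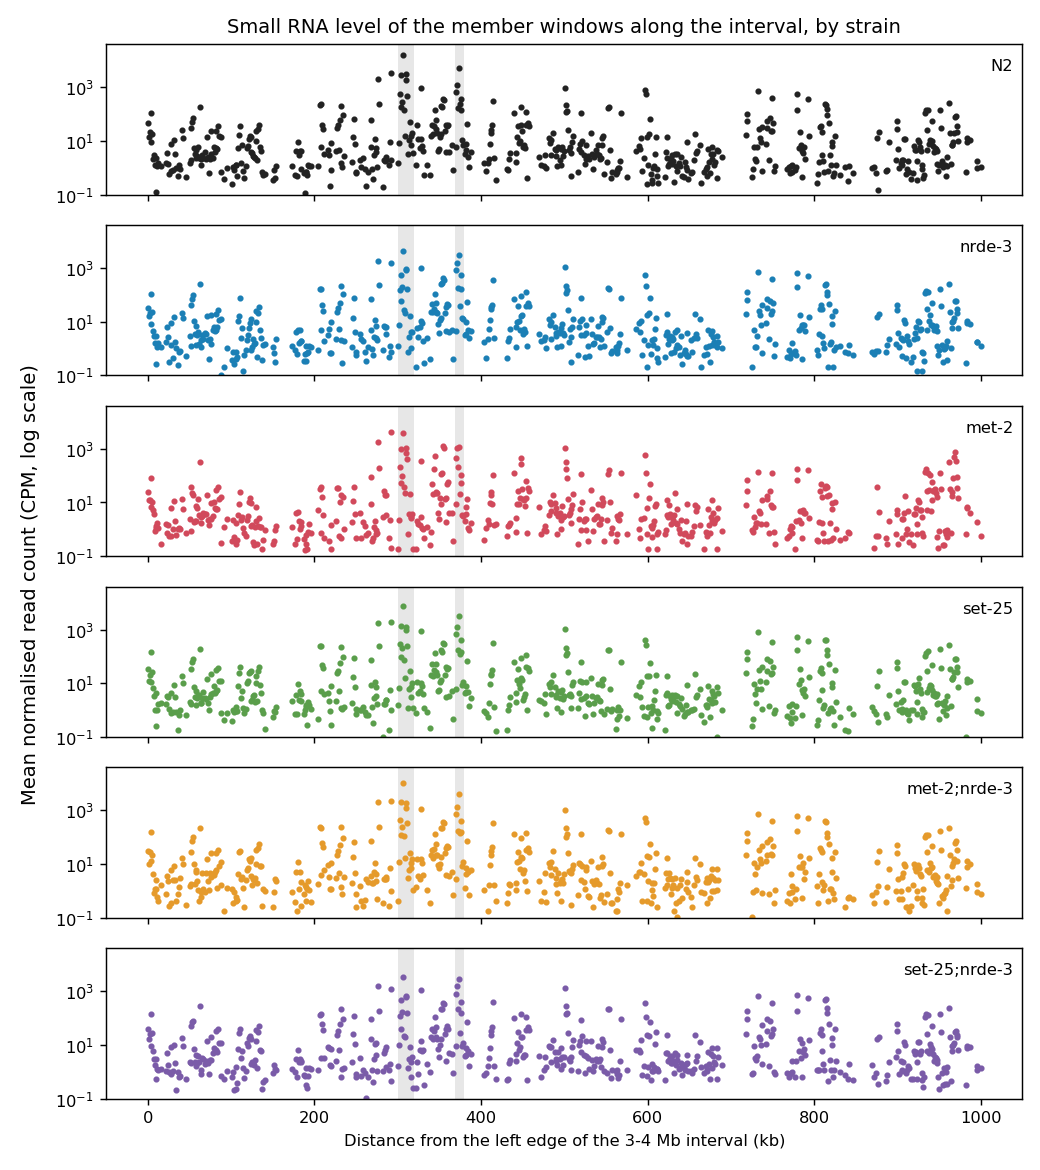
Mean normalised read count (CPM, log axis) of each member window against its distance from the left edge of the interval (kb), with a panel for each strain. Points are means over 3 libraries, grey bands mark the runs at 300 to 319 kb and 369 to 379 kb, and points below 0.1 CPM are not drawn (16 in met-2, 8 in met-2;nrde-3, 5 in nrde-3, 1 in set-25). The highest point in N2, at 306 kb, lies in the first band. It lies lower in every mutant, and least so in met-2;nrde-3, where the change did not pass the test.

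The region as a whole held a smaller part of the small RNA in the mutants, though normalised levels did not fall in all of its stretches. Its share of all reads in the table was 6.90% ± 0.817 in N2 (mean ± SD over 3 libraries). The single mutants held 3.47% ± 0.971 (nrde-3), 3.26% ± 0.367 (set-25) and 2.86% ± 0.228 (met-2), and the double mutants 5.59% ± 0.994 (met-2;nrde-3) and 2.37% ± 0.381 (set-25;nrde-3). Every library of the single mutants and of set-25;nrde-3 lay below every N2 library. By an exact two-sided permutation test p was 0.1 for each of these 4 strains, which is the lowest value possible with 3 libraries on each side, and 0.125 after adjustment over 5 comparisons. In met-2;nrde-3 the groups overlapped (exact permutation p = 0.2). With the last 13 kb of chromosome I left out of the totals, the share was 9.44% ± 0.486 in N2. For the mutants it was then 7.66% ± 0.121 (set-25), 6.19% ± 0.507 (nrde-3), 5.56% ± 0.0449 (met-2), 8.40% ± 0.373 (met-2;nrde-3) and 6.14% ± 0.0763 (set-25;nrde-3), each below every N2 library (exact permutation p = 0.1).

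The most abundant window, II:3306017-3307016, held 27.9% to 30.6% of the member reads in N2. That share was 9.14% to 17.7% in nrde-3, 12.3% to 13.1% in met-2, 20.5% to 21.5% in set-25, 21.6% to 25.4% in met-2;nrde-3 and 10.1% to 11.7% in set-25;nrde-3. In all 3 met-2 libraries, and in library 2 of nrde-3 and of set-25;nrde-3, another window was the most abundant. Without the window at 3306017 the members added up to 37669 ± 1086 CPM in N2 and to between 27530 ± 338 (met-2) and 34369 ± 1306 (met-2;nrde-3) in the mutants. The largest fall lay from position 3300001 to 3400000. Members there had 35341 ± 2595 CPM in N2 and 14756 ± 119 (met-2) to 27597 ± 2671 (met-2;nrde-3) in the mutants. Other stretches did not all fall. Members from 3700001 to 3800000 had 2703 ± 36.2 CPM in N2 and 940 ± 12.2 in met-2. In the other mutants they had 2936 ± 70.1 (set-25) to 3288 ± 66.2 (set-25;nrde-3).

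The window at 3306017 lies in a run of 19 adjoining members, II:3300017-3319016, in which most tested windows were lower than N2 in nrde-3, met-2 and set-25;nrde-3, and fewer in set-25. Its windows together had 27484, 24454 and 22789 CPM in the N2 libraries. In nrde-3 they had 6475, 4528 and 10721 CPM. In met-2 the sums were 7874, 7500 and 7601 CPM. The set-25;nrde-3 libraries reached 6184, 5322 and 5369 CPM. None of these 3 strains overlapped N2. The set-25 libraries had 12457, 13083 and 11678 CPM. The met-2;nrde-3 libraries had 20276, 14748 and 17271 CPM, also below all 3 N2 libraries.

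Of 18 windows tested in the run, the number lower than in N2 was 15 for nrde-3, 16 for met-2, 8 for set-25, 15 for set-25;nrde-3 and 1 for met-2;nrde-3. In met-2, 1 window of the run was higher. Over all windows tested, 1.69% (nrde-3), 23.0% (met-2), 2.09% (set-25), 3.63% (set-25;nrde-3) and 2.02% (met-2;nrde-3) were called lower, and 15.4% were called higher in met-2. These comparisons share the N2 libraries. The run was chosen after its values were seen, so its counts are a description and no test against these shares. Leaving out library 1, 2 or 3 of nrde-3 gave 12, 12 and 13 lower windows in nrde-3. For set-25, scaling by library totals alone gave 16 lower windows and fitting only set-25 and N2 gave 13. For met-2;nrde-3, the count was 9 without its library 1, 7 without the filter on low counts, and 0 without libraries 1 and 2.

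At the window at 3306017 the N2 libraries had 17098, 15283 and 14215 CPM. The nrde-3 libraries had 3927, 2627 and 6523 CPM, the set-25 libraries 7826, 8311 and 7343, and the met-2 libraries 4106, 3898 and 4054. All libraries of these strains lay below all of N2. The change was -1.83 ± 0.19 in nrde-3 (edgeR, adjusted p = 9.02e-08), -1.95 ± 0.19 in met-2 (adjusted p = 1.33e-09) and -0.99 ± 0.18 in set-25 (adjusted p = 7.88e-04).

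In set-25;nrde-3 the same window had 3787, 3113 and 3193 CPM, a change of -2.21 ± 0.19 from N2 (adjusted p = 1.57e-09). Against set-25 alone the change was -1.22 ± 0.18 (adjusted p = 7.60e-05). In met-2;nrde-3 it had 12212, 9229 and 10901 CPM. This was -0.53 ± 0.18 from N2, which did not pass the test (adjusted p = 0.106), and 1.42 ± 0.19 above met-2 (adjusted p = 3.33e-07). Without libraries 1 and 2 of met-2;nrde-3 the latter difference was 1.44 ± 0.21.

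The nrde-3 libraries differed among themselves over this run. Library 3 had the highest level at the windows at 3306017, 3303017 and 3309017 and library 2 the lowest. The end of chromosome I took 46.0%, 54.5% and 32.9% of the reads of nrde-3 libraries 1, 2 and 3. Its part in this spread was not tested. With that end left out the change between the groups at 3306017 was -1.83, which does not measure the spread among the nrde-3 libraries. Leaving out each library of nrde-3 and N2 in turn gave changes of -2.24 to -1.57 there.

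Abundant neighbours of the window at 3306017 were lower in the mutants too. II:3303017-3304016 had 2804 ± 349 CPM in N2, and the nrde-3 and set-25;nrde-3 libraries had 529 ± 220 and 456 ± 30.2 CPM, changes of -2.40 ± 0.18 and -2.62 ± 0.18 (edgeR, adjusted p = 3.25e-10 and 2.60e-11). In set-25 alone it had 1307 ± 43.6 CPM and in met-2;nrde-3 2122 ± 425. II:3309017-3310016 had 2945 ± 269 CPM in N2, 891 ± 387 in nrde-3 and 1078 ± 127 in met-2, with the libraries of N2 above all of these. This window was the only member of the run called lower in met-2;nrde-3, at 1907 ± 280 CPM and a change of -0.63 ± 0.18 (adjusted p = 0.0377). The highest adjusted p by edgeR with a library left out was 0.120. Without libraries 1 and 2 the change was -0.55, resting on 1 library of the strain. II:3310017-3311016 dropped from 1846 ± 178 CPM in N2 to 808 ± 372 (nrde-3), 721 ± 29.5 (met-2) and 592 ± 26.8 (set-25;nrde-3).

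Windows with fewer reads in the run were lower in nrde-3 as well. II:3318017-3319016 held 51 reads over the N2 libraries and 1 over the nrde-3 libraries, a scaled ratio of 30.7 (95% exact interval 5.27 to 1236, counting error only). II:3307017-3308016 and II:3317017-3318016 fell in nrde-3, with changes of -2.38 ± 0.19 and -2.22 ± 0.32 (adjusted p = 1e-09 and 3.17e-05).

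**Figure D2:**
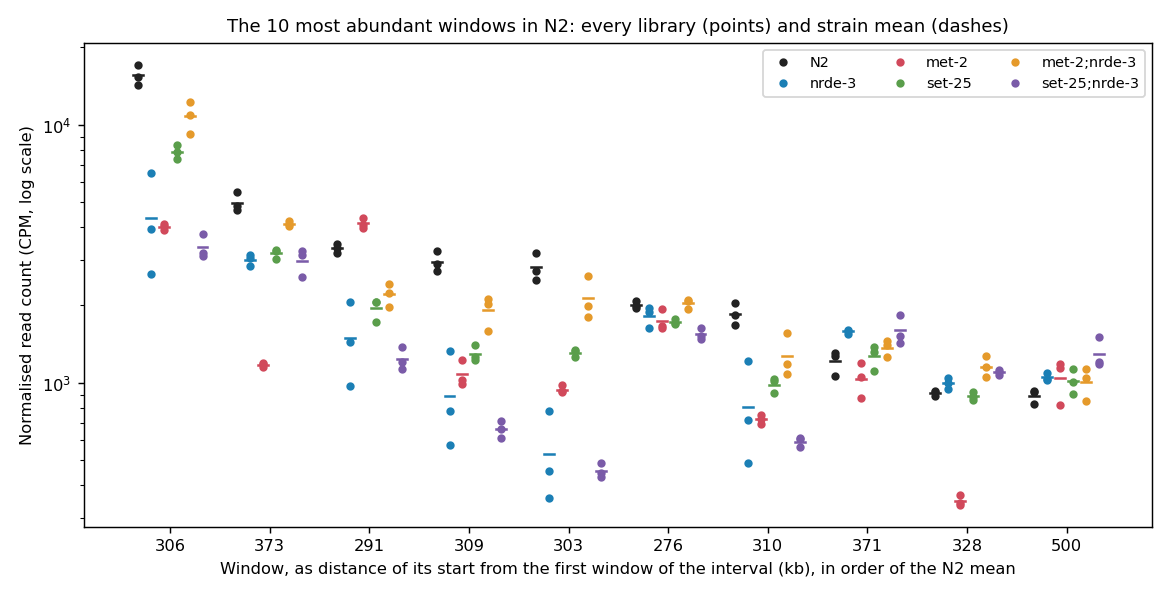
Normalised read count (CPM, log axis) of the 10 most abundant windows in N2, placed in order of their N2 mean and named by the distance of their start from the first window of the interval (kb). Points are libraries and dashes are strain means of 3 libraries. At 306 kb the N2 libraries lie between 14215 and 17098 CPM and the nrde-3 libraries between 2627 and 6523, while strain means run from 1539 to 2030 CPM at 276 kb and from 890 to 1295 CPM at 500 kb, and set-25;nrde-3 differed from N2 by the test in both windows.

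A second abundant stretch, II:3369017-3379016, mixed adjoining windows that differed in direction. Its 10 windows together had 7788 ± 247 CPM in N2, and 6316 ± 155 (nrde-3), 6004 ± 203 (set-25) and 3076 ± 177 (met-2) in the single mutants. Of the 10, 2 were lower and 1 higher in nrde-3 than in N2, and 7 were lower and 1 higher in met-2. Over all windows tested the shares called lower and higher were 1.69% and 2.26% in nrde-3, and in met-2 23.0% and 15.4%. This stretch, too, was chosen after its values were seen.

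Its window at II:3374017-3375016 had the lowest adjusted p of the members in nrde-3 against N2. The N2 libraries had 251, 237 and 233 CPM and the nrde-3 libraries 31.7, 40.0 and 45.8, a change of -2.60 ± 0.15 (edgeR, adjusted p = 8.54e-13). In set-25;nrde-3 it had 23.6, 33.7 and 23.6 CPM, a change of -3.14 ± 0.15 from N2 and of -2.15 ± 0.15 from set-25 (adjusted p = 4.64e-14 and 5.22e-10). In met-2 it had 17.3, 23.9 and 20.3 CPM, a change of -3.55 ± 0.16 (adjusted p = 6.19e-17). Levels in set-25 (126, 132 and 105 CPM) and in met-2;nrde-3 (158, 134 and 155 CPM) lay below N2 and above the other mutants with no overlap. The met-2;nrde-3 change of -0.69 ± 0.13 passed the test (adjusted p = 1.36e-03). Without libraries 1 and 2 it was -0.63, resting on 1 library of the strain.

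The next window to the right, II:3375017-3376016, moved the other way in nrde-3. Its N2 libraries had 362, 360 and 378 CPM and its nrde-3 libraries 507, 525 and 569, so that the groups did not overlap. The change was 0.54 ± 0.10 (edgeR, adjusted p = 5.94e-04), and 0.26 with no call under library totals alone. In met-2 it was lower, at 106 ± 9.48 CPM, a change of -1.78 ± 0.10 (adjusted p = 1.94e-14).

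The window to the left, II:3373017-3374016, was the second most abundant of the region in N2. It had 5467, 4832 and 4681 CPM in N2, 2824, 3032 and 3137 in nrde-3 and 3031, 3230 and 3277 in set-25. The met-2 libraries were lowest, at 1194, 1182 and 1153 CPM. Changes from N2 were -0.74 ± 0.10 in nrde-3, -0.65 ± 0.10 in set-25, -0.75 ± 0.10 in set-25;nrde-3, and for met-2 the change was -2.09 ± 0.10 (edgeR, adjusted p = 1.04e-05, 6.45e-05, 3.73e-06 and 8.13e-16). In set-25;nrde-3 its level of 2977 ± 360 CPM was close to that in set-25, with a difference of -0.09 ± 0.10 (adjusted p = 0.759).

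The reads of this window also lay at other positions within it in some strains. Between pairs of N2 libraries, 3.48% to 5.74% of its reads would have to move to other bins to make the profiles equal. Between the mutants' libraries and the N2 profile that part was 17% to 22.4% for nrde-3, 21.9% to 26.8% for set-25;nrde-3 and 25.4% to 29.2% for met-2. It was 7.46% to 10.3% in set-25 and 8.16% to 12.1% in met-2;nrde-3. The bin with most reads lay 660 bp into the window in N2 and met-2 and 140 bp into it in the other strains. In the window at 3306017 the corresponding part was 11.1% to 16.9% in nrde-3 against 2.71% to 5.05% between N2 libraries, and the leading bin was the same in all strains. These are descriptions without a test.

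**Figure D3:**
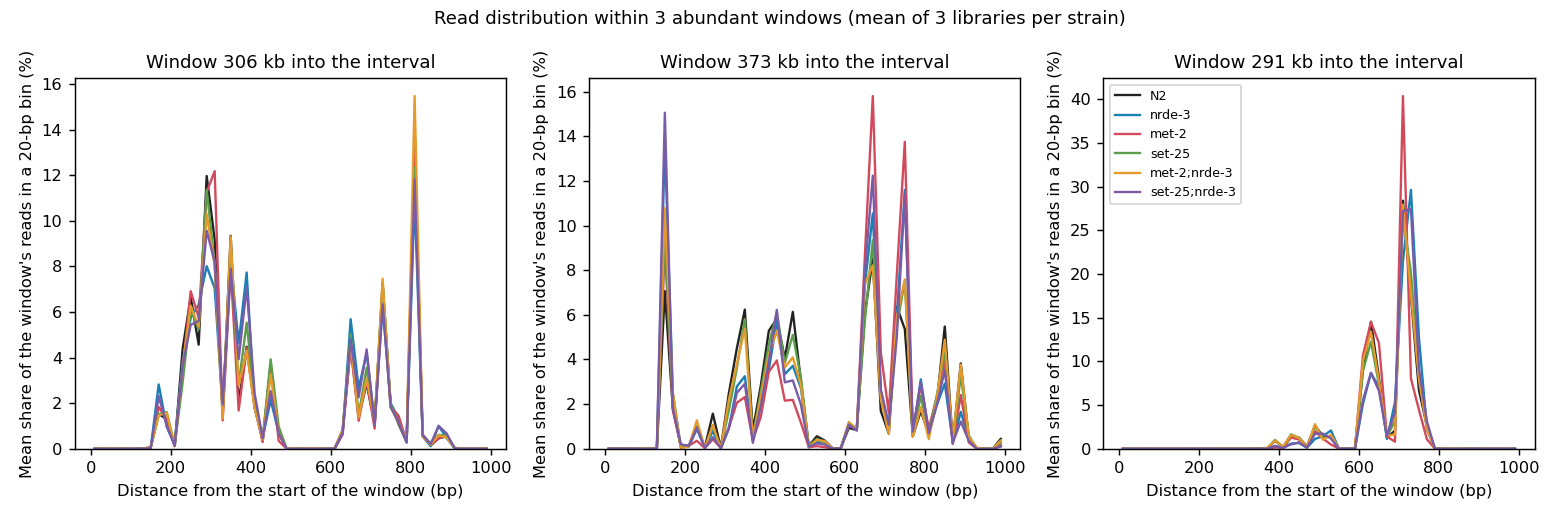
Mean share (%) of a window's reads in each 20-bp bin against the distance from the start of the window (bp), for windows 306, 373 and 291 kb into the interval, with a line for each strain (mean of 3 libraries). At 373 kb the leading bin lies at 660 bp in N2 and met-2 and at 140 bp in nrde-3, set-25 and both double mutants, while at 306 kb all strains peak at 800 bp. The mean share at 660 bp in the window at 373 kb is 8.53% in N2 and higher in every mutant except met-2;nrde-3 (8.21%).

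Over the whole region, the windows that changed in nrde-3 were more often lower than higher. Of 400 members tested, 27 were lower than in N2, which is 6.75%, while 1.69% of all windows tested were called lower. Called higher were 9 members, which is 2.25%, and 2.26% of all windows tested. The median log2 change was 0.00 over the members and over all windows. Under library totals alone the split was 1 higher and 31 lower, with the median of all windows at -0.29. The shares of all windows called under that scaling are not given. Of the 27 lower windows, 15 belonged to the run at II:3300017-3319016, so that they are not independent loci.

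Outside the runs already described, II:3597017-3598016 had 529 ± 23.3 CPM in N2 and 206, 116 and 293 in the nrde-3 libraries, all below N2. The change there was -1.37 ± 0.19 (edgeR, adjusted p = 1.32e-05). II:3323017-3324016 had 40.4, 35 and 36.7 CPM in N2 and 3.63, 2.08 and 12.1 in nrde-3, a change of -2.61 ± 0.34 (edgeR, adjusted p = 7.12e-06). This window was called lower in all 5 mutants. It had 2.01 ± 0.725 CPM in met-2, 2.31 ± 0.917 in set-25;nrde-3, 11.3 ± 2.70 in set-25, and 15.2 ± 1.22 in met-2;nrde-3. The change in met-2;nrde-3 was -1.29 ± 0.31. Without libraries 1 and 2 it was -1.17, resting on 1 library of the strain.

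Among the windows higher in nrde-3, II:3110017-3111016 rose from 32.9, 34.9 and 35.5 CPM in N2 to 72.1, 70.9 and 93.4, a change of 1.19 ± 0.17 (edgeR, adjusted p = 2.86e-05). In set-25;nrde-3 it had 38.4 ± 3.44 CPM while met-2;nrde-3 had 30.8 ± 8.03, against 34.4 ± 1.34 in N2. II:3284017-3285016, with few reads, rose by 1.75 ± 0.38 in nrde-3 (adjusted p = 5.15e-03) and by 1.78 ± 0.41 in set-25;nrde-3 over set-25 (adjusted p = 7.10e-03). The highest adjusted p by edgeR with a library left out was 0.0516 in the former and 0.0526 in the latter. Under library totals alone no member was called higher in set-25;nrde-3 over set-25.

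The change on losing nrde-3 where set-25 was lost too is given by set-25;nrde-3 relative to set-25, a pair of strains not used in the comparison of nrde-3 and N2. Here 17 of the 27 windows that nrde-3 lowered relative to N2 were lower as well, which is 63.0% of them and 68.0% of the 25 members lower in this comparison. Of the rest, 1 was higher and 9 were not called. Of the 9 windows higher in nrde-3, 4 were higher here, which is 44.4% of them and 19.0% of 21. Of the members tested, 6.25% were called lower and 5.25% higher, and among all windows tested 1.91% and 3.78%. In the run at II:3300017-3319016, 11 of 18 windows were lower and none of the 18 was higher. That number was 7 without library 2 or without library 3 of set-25;nrde-3.

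A pair of adjoining windows, II:3447017-3448016 and II:3448017-3449016, was an exception to this overlap. At 3447017 the N2 libraries had 40.9, 38.0 and 33.7 CPM, the nrde-3 libraries 15.4, 18.1 and 14.6 and the set-25 libraries 14.4, 15.9 and 16. With both genes mutated, set-25;nrde-3 had 19.0, 16.4 and 25 CPM, so that the libraries of these 3 mutants lay below N2. Changes from N2 were -1.21 ± 0.16, -1.27 ± 0.16 and -0.90 ± 0.16 (edgeR, adjusted p = 7.12e-06, 2.96e-06 and 1.78e-04).

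At 3448017 the level was 177 ± 11.6 CPM in N2, 93.5 ± 4.06 in nrde-3, 88.1 ± 12.8 in set-25 and, with both lost, 146 ± 12.4. Losing nrde-3 changed it by -0.92 ± 0.14 in the wild-type background and by 0.73 ± 0.14 in the set-25 background (edgeR, adjusted p = 6.80e-05 and 1.71e-03). The rise in the set-25 background was without a call under library totals alone, where no member was higher in that comparison. The test of the difference gave 1.65 ± 0.20 here and 1.59 ± 0.24 at 3447017 (adjusted p = 8.04e-06 and 1.44e-04). Over the region this test called 3 members above 0 and 2 below. These are 0.75% and 0.5% of the members tested, close to the 0.885% and 0.447% of all windows. In met-2 both windows were higher than in N2, at 269 ± 5.82 and 444 ± 40.2 CPM, by 2.84 ± 0.14 and 1.32 ± 0.14.

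**Figure D4:**
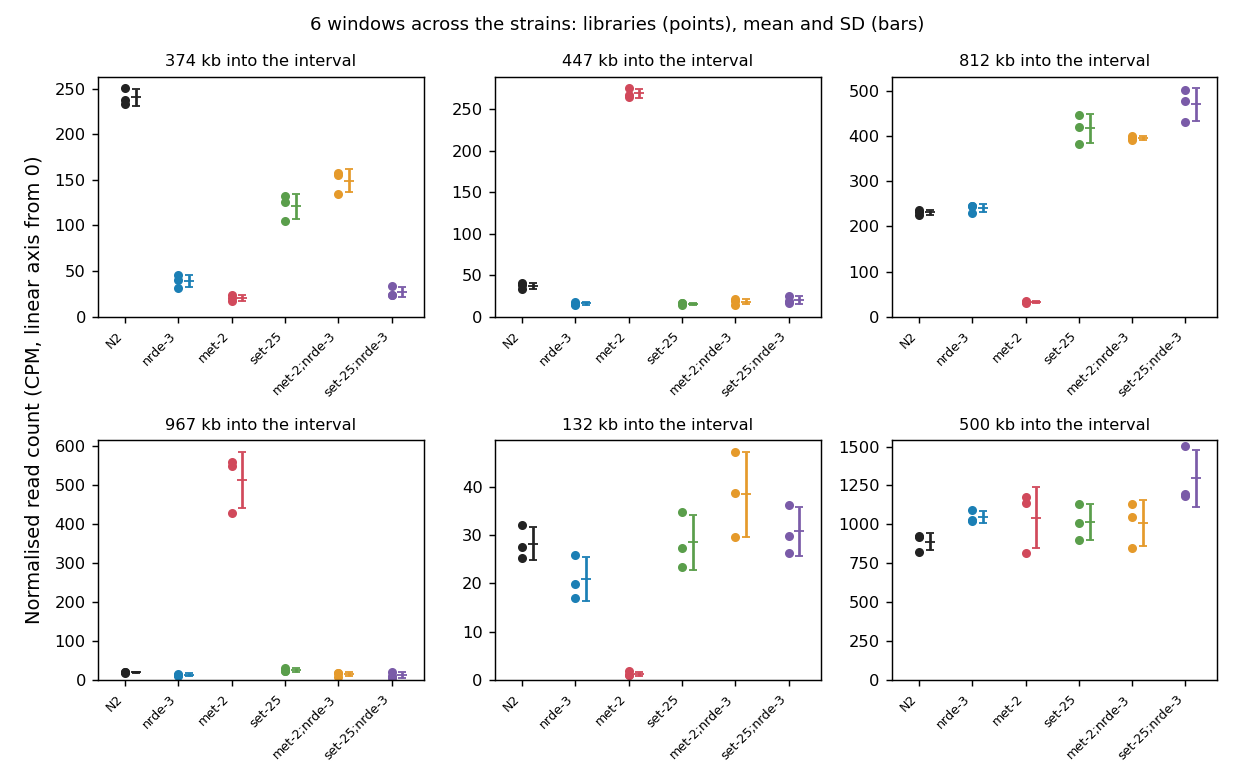
Normalised read count (CPM, linear axis from 0) in each strain for windows 374, 447, 812, 967, 132 and 500 kb into the interval. Points are libraries, and bars are the mean and SD of 3 libraries. The window at 374 kb is highest in N2, those at 447 and 967 kb are highest in met-2, those at 812 and 132 kb are lowest in met-2, and at 500 kb the means run from 890 CPM in N2 to 1295 in set-25;nrde-3, a difference that passed the test.

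In set-25, 13 members were higher and 17 lower than in N2, which is 3.25% and 4.25% of those tested, with 2.04% and 2.09% over all windows. The lower members included 8 of the run at II:3300017-3319016. Under library totals alone no member was higher and 83 were lower, with the median of all windows at -0.58, so that rises in set-25 hold only relative to the other windows. The share of all windows called lower under that scaling is not given, so the 83 do not set the members apart.

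Among the windows higher in set-25 were adjoining windows at II:3812017-3813016 and II:3813017-3814016. The first had 232, 236 and 225 CPM in N2, 245, 230 and 245 in nrde-3 and 446, 421 and 382 in set-25. The libraries of set-25 lay above all of N2 and nrde-3. The changes were 0.85 ± 0.10 (set-25) and 1.02 ± 0.10 (set-25;nrde-3) by edgeR (adjusted p = 8.37e-07 and 1.13e-08), and 0.27 and 0.23 with no call under library totals alone.

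In met-2;nrde-3 the window at 3812017 had 390, 400 and 395 CPM, a change of 0.77 ± 0.10. Without libraries 1 and 2 the change was 0.78, resting on 1 library of the strain. In met-2 it had 33.3, 35.5 and 30.7 CPM, a change of -2.80 ± 0.11 (adjusted p = 7.23e-18). The neighbour at 3813017 had 220 ± 7.95 CPM in N2, 393 ± 46.2 in set-25, 504 ± 20.3 in set-25;nrde-3 but 42.3 ± 3.64 in met-2. For nrde-3 alone the changes of 0.05 ± 0.10 and 0.20 ± 0.11 in these windows did not pass the test.

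Libraries labelled met-2 had 51 members higher and 151 lower than N2. These are 12.8% and 37.8% of the members tested, with 15.4% and 23.0% over all windows tested. The median change was -0.41 over the members and 0.02 over all windows. The falls were spread unevenly. From 3.7 to 3.8 Mb, 25 of 33 tested windows were lower in met-2 and none of them higher. All 46 members of that interval together had 940 ± 12.2 CPM in met-2 and 2703 ± 36.2 in N2. From 3.9 to 4.0 Mb, 19 of 49 were higher and 6 lower, and all 73 members had 3303 ± 291 CPM in met-2 and 1378 ± 71.6 in N2.

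**Figure D5:**
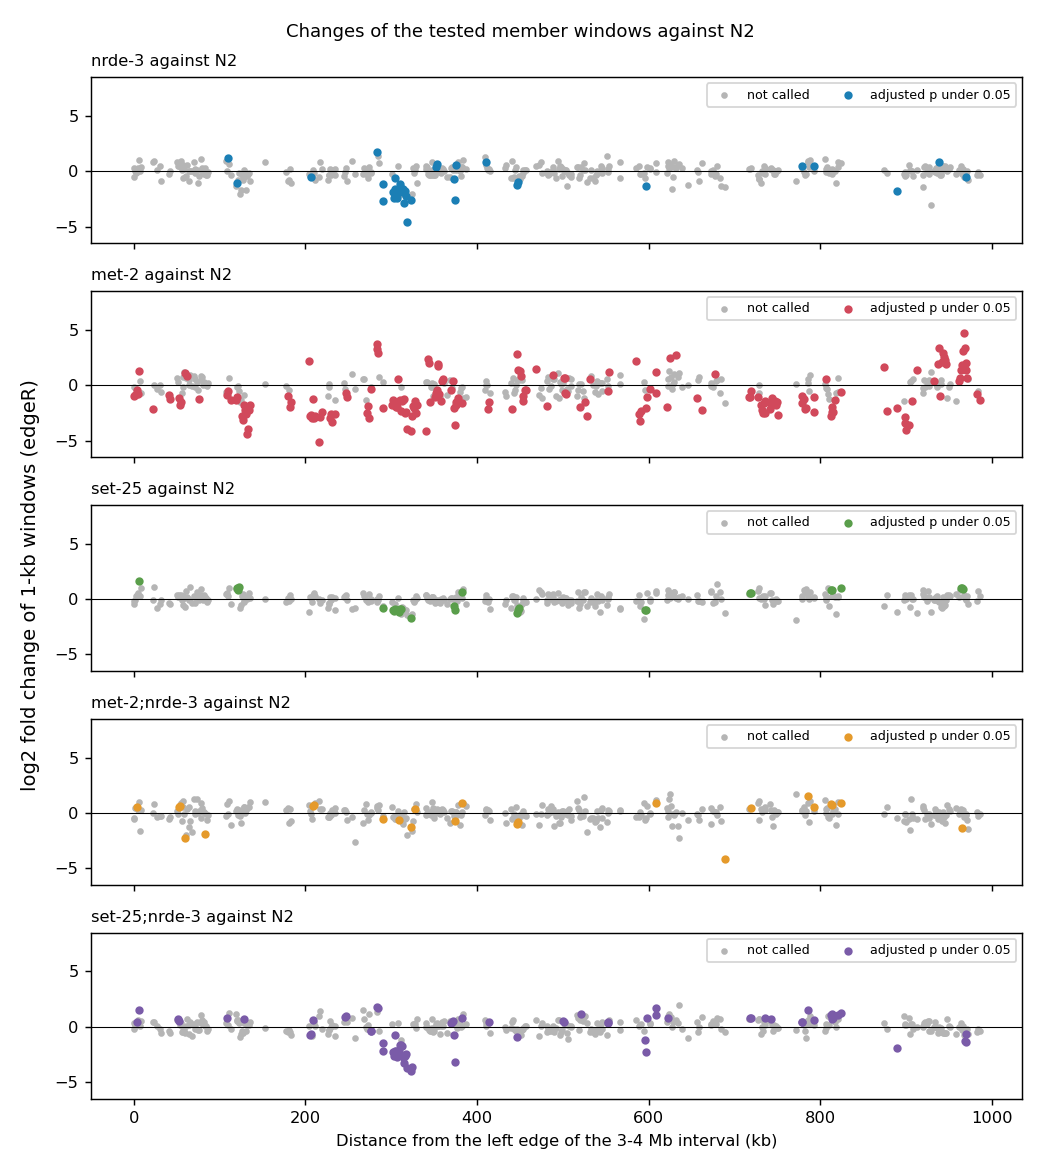
log2 fold change (edgeR) of each tested member window against N2, by its distance from the left edge of the interval (kb), with a panel for each mutant strain. Coloured points passed an adjusted p under 0.05 and grey points did not. In met-2, 151 windows lie below and 51 above 0 among the coloured points, and in nrde-3, 15 of 27 lower windows lie between 300 and 319 kb.

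Some windows had very few reads in met-2 and were not called in the other mutants. II:3132017-3133016 had 25.2, 27.6 and 32.0 CPM in N2 and 1.03, 1.14 and 1.79 in met-2, a change of -4.40 ± 0.31 (edgeR, adjusted p = 1.93e-12). Its other strain means ran from 20.9 ± 4.54 CPM in nrde-3 to 38.5 ± 8.82 in met-2;nrde-3. The neighbour at II:3133017-3134016 and the windows at II:3340017-3341016 and II:3899017-3900016 changed in met-2 by -3.96 ± 0.36, -4.16 ± 0.38 and -3.40 ± 0.19. None of these 4 windows was called against N2 in nrde-3, set-25 or either double mutant. Among abundant windows, II:3328017-3329016 fell from 913 ± 22.9 CPM in N2 to 349 ± 15.9 in met-2, a change of -1.39 ± 0.09, and had 887 ± 34.2 CPM in set-25.

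Rises in met-2 included the run II:3961017-3973016. Its windows together had 499, 544 and 555 CPM in N2 and 1936, 2429 and 2315 in met-2, and 10 of 11 tested windows rose. Of all windows tested, 15.4% were called higher. The run was chosen after its values were seen, so its count is a description and no test against that share. II:3967017-3968016 had 19.8, 21.2 and 17.4 CPM in N2 and 429, 559 and 550 in met-2, a change of 4.71 ± 0.23 (edgeR, adjusted p = 9.45e-16). II:3968017-3969016 had 74.4 ± 9.11 CPM in N2 and 756 ± 104 in met-2, a change of 3.34 ± 0.14. These windows had reads in all of their 50 bins.

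In the run at II:3961017-3973016, nrde-3 libraries had 499 ± 15.6 CPM in all and met-2;nrde-3 libraries 468 ± 20.4. The set-25 libraries had 609 ± 14.5 CPM and set-25;nrde-3 libraries 412 ± 37.5. Against set-25, 6 of 11 windows were lower in set-25;nrde-3, with 1.91% of all windows tested called lower. The number was 2 without library 2 or without library 3 of set-25;nrde-3. At 3968017 set-25 had 75.4, 78.4 and 77.8 CPM and set-25;nrde-3 40.6, 25 and 26.3, a change of -1.35 ± 0.16 (edgeR, adjusted p = 1.51e-06).

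Further windows rose in met-2. II:3938017-3939016 had 10.3 ± 0.944 CPM in N2, 104 ± 11 in met-2 and 18.4 ± 3.95 in nrde-3, changes of 3.32 ± 0.17 and 0.84 ± 0.19 (edgeR, adjusted p = 3.22e-15 and 7.62e-03). The nrde-3 change there was 0.56 with no call under library totals alone, and did not pass without N2 library 1 or nrde-3 library 3. II:3283017-3284016 and II:3284017-3285016 had 1.97 ± 1.14 and 1.85 ± 0.509 CPM in N2 and 27.6 ± 6.94 and 18.4 ± 1.87 in met-2, changes of 3.74 ± 0.48 and 3.29 ± 0.35. The window at 3283017 had 7.17 ± 4.63 CPM in nrde-3, where the change of 1.75 ± 0.54 did not pass (adjusted p = 0.0707).

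Among the longest runs, II:3340017-3362016 had 22 windows that together held 1579 ± 30.6 CPM in N2 and 3627 ± 72.9 in met-2, while 6 of 22 tested windows were higher and 7 lower in met-2. Its sums in the other mutants ran from 1480 ± 74.9 (set-25) to 1786 ± 81.2 (nrde-3). The run II:3804017-3826016, which holds the window at 3812017, had 871 ± 20.4 CPM in N2 and 277 ± 7.58 in met-2, where 6 of 15 tested windows were lower and 1 higher. Its sum was 1620 ± 46.7 CPM in set-25;nrde-3, with 6 windows higher and none of the 15 lower. In II:3918017-3953016, 8 of 27 tested windows were higher and 1 lower in met-2, and the sum was 1019 ± 43.1 CPM. Of all windows tested, 15.4% were called higher and 23.0% lower in met-2, and 5.63% higher in set-25;nrde-3.

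The third most abundant window in N2, II:3291017-3292016, ranked first in met-2. It had 3443, 3340 and 3193 CPM in N2 and 4349, 3987 and 4099 in met-2. All met-2 libraries lay above N2, but the change of 0.32 ± 0.16 did not pass the test (edgeR, adjusted p = 0.116). The nrde-3 libraries had 1437, 970 and 2051 CPM, the set-25 libraries 2058, 2053 and 1720 and the set-25;nrde-3 libraries 1380, 1205 and 1131, with changes of -1.16 ± 0.16, -0.77 ± 0.16 and -1.42 ± 0.16. In met-2;nrde-3 it had 2205 ± 223 CPM, a change of -0.59 ± 0.16 (adjusted p = 0.0257). The highest adjusted p by edgeR with a library left out was 0.0744. Without libraries 1 and 2 the change was -0.58, resting on 1 library of the strain.

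The met-2;nrde-3 libraries differed from N2 in fewer windows than from met-2. Their genotype could not be checked in these data, so that every value for this strain, and the interaction of met-2 and nrde-3, rests on the labels. Against N2, 14 members were higher and 10 lower, which is 3.5% and 2.5%, with 2.62% and 2.02% over all windows tested. Without libraries 1 and 2 these numbers were 5 and 2. Against met-2, 152 members were higher and 65 lower, which is 38.0% and 16.2%, with 24.1% and 18.9% over all windows tested. Among the 27 windows that nrde-3 lowered relative to N2, met-2;nrde-3 was above met-2 in 18 and below it in 4. The test of whether the nrde-3 change differed between the met-2 and the wild-type background called 136 members above 0 and 43 below. It called 34.0% and 10.8% of the members tested, with 18.8% and 11.4% over all windows. Without libraries 1 and 2 it called 138 and 42.

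In set-25;nrde-3, 39 members were higher and 32 lower than in N2, which is 9.75% and 8%, with 5.63% and 3.63% over all windows. Under library totals alone no member was higher and 150 were lower, with the median of all windows at -0.77. The share of all windows called lower there is not given, so the 150 are not a result about the members. The 3 largest rises by the naming rule were of 1.72 ± 0.35 at II:3608017-3609016, 1.52 ± 0.32 at II:3785017-3786016 and 1.28 ± 0.21 at II:3824017-3825016. Under that scaling they were 0.95, 0.73 and 0.52, and none of the 3 passed the test.

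Others of the 10 most abundant windows had calls in set-25;nrde-3. II:3276017-3277016 had 2003 ± 70.0 CPM in N2 and strain means from 1539 ± 76.5 in set-25;nrde-3 to 2030 ± 86.6 in met-2;nrde-3. Its only call against N2 was in set-25;nrde-3, at -0.38 ± 0.10 (edgeR, adjusted p = 9.25e-03). II:3500017-3501016 had 890 ± 56.0 CPM in N2 and up to 1295 ± 181 in set-25;nrde-3, where the change of 0.54 ± 0.13 passed (adjusted p = 6.46e-03) but turned to -0.26 under library totals alone. II:3371017-3372016 had 1210 ± 132 CPM in N2 and 1594 ± 211 in set-25;nrde-3, a change of 0.40 ± 0.12 (adjusted p = 0.0332) that turned to -0.40 under that scaling.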

How the data were processed

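Total small RNA was treated with TAP, which lets capped and triphosphate ends be ligated, and sequenced as single-end reads of 50 bases. Per the labels, the authors used the FASTX-Toolkit to clip and collapse reads, and QuasR for mapping to WS220 (ce10). Tool versions are not given in the sources used here. The table deposited holds counts of reads per 20-bp bin and library, both strands together, for chromosome I and the first 5.9 Mb of chromosome II. The series text states scaling and length subsetting, which these whole numbers do not show, so they were treated as unscaled counts.

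Bins were summed to 1-kb windows by the start of the bin, so windows begin at bin starts such as 3306017. All 18 libraries entered a single model with a coefficient per strain in edgeR 4.0.16 (R 4.3.3; data.table, version 1.17.8). Windows of the whole table were kept by filterByExpr (minimum count 10), scaled by TMM and tested by glmQLFTest with Benjamini-Hochberg adjustment. For an interaction, the single mutants were subtracted from the double mutant and N2 was added. The SE of a log2 change is its size over the square root of F. The procedure was tested on simulated data with a single dispersion for all windows and changes in nrde-3 alone. Shares of the chromosome I end that differ between libraries were not simulated. Region shares were compared by exact permutation. Named windows were the 10 most abundant in N2 and the largest changes, 6 per direction against N2 and 3 elsewhere. Candidates had a group mean above 8.94 CPM and, outside the interactions, no overlap of libraries. The 3 longest runs were named too. The windows at 3318017 and 3597017 and the runs at 3300017, 3369017 and 3961017 were chosen after their values were seen. The region, comparisons and rules were chosen with earlier results of these data known. Alternatives were RLE factors, library totals alone, DESeq2 1.42.0, no filter, a replicate block, only the groups compared, the end of chromosome I left out, libraries 1 and 2 of met-2;nrde-3 left out, and each library left out in turn. Tables and plots used Python 3.11.15, pandas 2.3.3, numpy 2.4.6 and matplotlib 3.10.9. Since the growth protocol speaks of 2 biological replicates and the strains have 3 libraries, p-values measure only the spread among libraries, which may be technical. No genome of build ce10 was used here, so no sequence is printed.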

Additional observations from a re-analysis of the deposited data

Results flagged for a closer look

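In 5 windows the change on losing nrde-3 differed between the set-25 and the wild-type background by the test of that difference (edgeR, adjusted p under 0.05 over all windows). These were 0.75% of the members tested above 0 and 0.5% below, close to the 0.885% and 0.447% of all windows tested. The differences were 1.65 ± 0.20 at II:3448017-3449016, 1.59 ± 0.24 at II:3447017-3448016, 0.64 ± 0.14 at II:3373017-3374016, -1.31 ± 0.25 at II:3110017-3111016 and -1.01 ± 0.22 at II:3968017-3969016. Those at 3373017, 3110017 and 3968017 did not pass under library totals alone, where they were 0.74, -1.25 and -0.97, and those at 3373017 and 3968017 did not pass without library 2 of set-25;nrde-3.

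In 6 further windows, the largest of each sign, the nrde-3 change differed between the met-2 and the wild-type background, as the libraries are labelled. Those labelled met-2;nrde-3 differed from N2 in 24 members and from met-2 in 217. Of the members tested, 3.5% were called higher and 2.5% lower against N2, and 38.0% and 16.2% against met-2. Over all windows tested, 2.62% were called higher and 2.02% lower against N2, and 24.1% and 18.9% against met-2. The genotype of these libraries could not be checked, so the differences given here are only as sure as the labels. The differences above 0 were 5.49 ± 0.55 at II:3323017-3324016, 5.47 ± 0.21 at II:3374017-3375016 and 6.71 ± 0.92 at II:3216017-3217016. The last of these rests on 1 read in met-2 and depends on the prior count. There, met-2;nrde-3 held 80 reads, a scaled ratio of 99.3 to met-2 (95% exact interval 17.3 to 3971, counting error only), and N2 held 65. The differences below 0 were -5.04 ± 0.74 at II:3283017-3284016, -4.60 ± 0.38 at II:3967017-3968016 and -4.40 ± 0.52 at II:3284017-3285016.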

How the results depend on the processing

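Shares of all windows called under the alternatives are not given, so the counts of this section do not set members against other windows. Counts of called members moved by more than 1.5 times in these comparisons, and the cause was not tested. For set-25 against N2 (30 called), library totals alone gave 83 and only the groups compared 60, and leaving out each library gave 19 to 24. For met-2;nrde-3 against N2 (24), totals alone gave 6, only the groups compared 11, libraries 1 and 2 left out 7, and leaving out each library 9 to 48, with 48 without its library 3 and 9 without N2 library 2. For set-25;nrde-3 against N2 (71), totals alone gave 150, and leaving out each library 50 to 63. For set-25;nrde-3 against set-25 (46), totals alone gave 25, and leaving out each library 26 to 38. For the interaction of set-25 and nrde-3 (5), totals alone gave 2, no filter 12, DESeq2 10 and leaving out each library 3 to 13, with 13 without nrde-3 library 3.

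Other counts stayed within 1.5 times. Leaving out each library gave 27 to 35 in nrde-3 (36), 177 to 184 in met-2 (202), 199 to 223 in met-2;nrde-3 against met-2 (217) and 159 to 189 in its interaction (179). Library totals alone changed the split of higher and lower to 27 and 188 for met-2 and to 1 and 5 for met-2;nrde-3. The split was 182 and 31 where met-2;nrde-3 was set against met-2, 0 and 25 in set-25;nrde-3 against set-25, and 187 and 22 in the interaction of met-2 and nrde-3. Of 3433 values of single windows under alternatives, 3154 kept their call, 276 kept their direction without passing and 3 changed sign. The latter, all in set-25;nrde-3 against N2 under totals alone, were -0.40 at II:3371017-3372016, -0.26 at II:3500017-3501016 and -0.13 at II:3792017-3793016.

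With the replicate number as a block, calls against N2 numbered 36 (nrde-3), 196 (met-2), 27 (set-25), 24 (met-2;nrde-3) and 69 (set-25;nrde-3). The block gave 38 in set-25;nrde-3 against set-25, 212 in met-2;nrde-3 against met-2, and 5 and 178 in the interactions. No pairing by these numbers was seen: of 45 same-numbered pairs 0 correlated over 0.1 in their deviations from the group means. Of 90 pairs with unlike numbers, 0 did so as well. A weak pairing could be missed by this measure. Windows of few reads limit what can be seen, since 185 members, each with at most 118 reads, were not tested.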
